A study of Mus musculus with 2 samples.

Results

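The Fc receptor and immunoreceptor tyrosine-based activation motif (ITAM) genes described here are Fcgr1, Fcgr4, Fcgr3, Fcgr2b, Fcer1g, Tyrobp, Trem2, Syk and Laptm5. The 9 genes were named as a group with earlier results of these data known, so their shared direction is a description. Their probe sets are all those that the platform annotation assigns to exactly 1 gene among these 9, out of 18193 genes with such a probe set. All 9 genes were found, with 22 of 34945 one-gene probe sets, and each had at least 1 probe set that both arrays measured above a floor defined below. Syk is the kinase below the receptors and adaptors, and Laptm5 is a lysosomal membrane protein of blood cells that is neither an Fc receptor nor an adaptor.

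Gene expression was measured on Affymetrix arrays in 2 cultures of unsorted murine bone marrow cells, 1 from Cpdm mice and 1 from wildtype mice. Cpdm mice carry the chronic proliferative dermatitis mutation, a spontaneous loss of Sharpin, and the study's title names the control of mesenchymal marrow cell differentiation and cytokine production by Sharpin. Both cultures were kept for 10 days with β-glycerophosphate at 10 mM and ascorbic acid at 50 µg/ml, supplements that drive stromal cells towards osteoblasts, with no other treatment. Each array was made from 5 µg of total RNA. Strain background, age, sex and the number of mice pooled per culture are not stated in the labels. No culture was repeated, so there is no error between replicates, no test and no p-value. Each difference below describes these 2 arrays, whose number limits the precision.

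Fcγ receptors bind the constant part of immunoglobulin G on macrophages, neutrophils, mast cells and other leukocytes. Most of them have no signalling part of their own and pair with the small adaptor FcRγ, encoded by Fcer1g, while Trem2 and related receptors pair with the adaptor DAP12, encoded by Tyrobp. Both adaptors carry an ITAM, which Src family kinases phosphorylate and to which the kinase Syk then binds. Fcgr2b works the other way, through an inhibitory motif that recruits phosphatases. In bone marrow the same adaptors provide the costimulation that osteoclast precursors need, and the genes are marks of macrophages rather than of stromal cells.

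All 9 genes had a higher signal in the Cpdm culture than in the wildtype culture. At least 2-fold higher were 3 of 9, Syk, Fcgr1 and Laptm5, where 5.84% of all 14055 measured genes passed that size. The other 6 were between 1.33-fold and 1.79-fold higher, and none of the 9 was at least 2-fold lower, against 5.98% of measured genes. The median log2 ratio of Cpdm over wildtype was 0.83 for the members, or 1.77-fold, and 0.03 for all measured genes, of which 52.4% had a ratio above 0. A gene counts as measured if its brightest probe set lay at or above a floor, the 40th percentile of the array, in at least 1 array. The floor stood at 18.5 for Cpdm and 18.7 for wildtype, and anything dimmer was raised to it. These arrays sum over all cells of a culture, so more cells that carry these transcripts and more transcript per cell cannot be told apart.

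The size of the differences can be read against what the array pair itself showed. The 18 hybridisation spike-ins, added to every sample alike, had log2 ratios between -0.22 and 0.20, and all 9 members lay above that range. Where a gene had 2 probe sets past the floor, these disagreed with a robust SD of 0.37 log2 units each over 3189 genes, and of 0.20 over 352 genes whose probe sets both had a mean signal of at least 500. For the difference between a pair of genes this gives an SD of 0.52 log2 units, or 0.29 for a pair with signals of at least 500. Ordered by log2 ratio, the members ran Syk 2.13, Fcgr1 1.76, Laptm5 1.03, Fcgr2b 0.84, Trem2 0.83, Fcgr3 0.63, Tyrobp 0.46, Fcer1g 0.46 and Fcgr4 0.41. The step between Fcgr1 and Laptm5, of 0.73, was the one step between neighbours in that order larger than 0.52. The SD is a typical disagreement and not a limit. Over the 3189 genes, the 95th percentile of the absolute difference between 2 probe sets of 1 gene was 1.19 log2 units. The step of 0.73 is smaller than that. These measures come from the array step alone and say nothing of how mice, cultures or RNA preparations vary.

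Probe set by probe set, 16 of the 17 that lay above the floor in both arrays were brighter in the Cpdm array, and 8 of them by at least 2-fold, a size that 5.07% of all such probe sets reached. Of the other 5, 2 were above the floor in Cpdm alone, 1 in wildtype alone and 2 in neither.

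**Figure D1:**
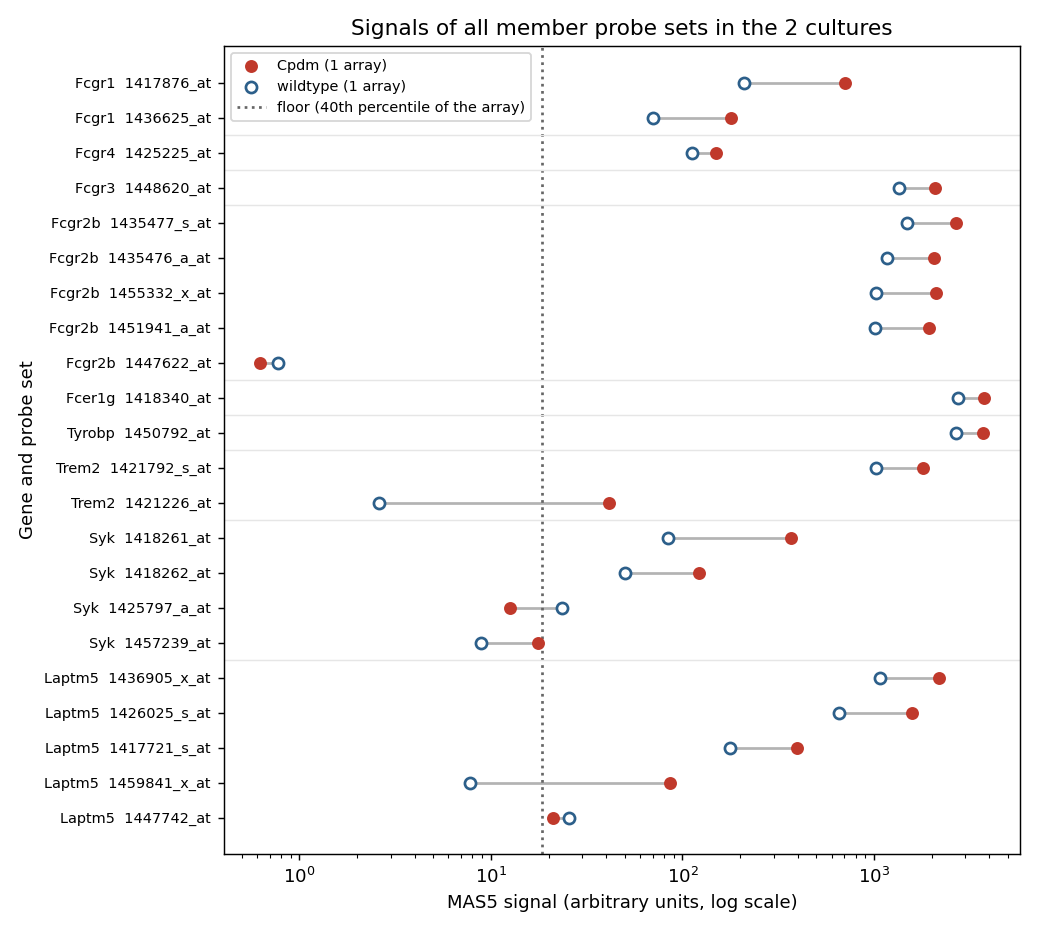
MAS5 signal (x axis, arbitrary units, log scale) of each of the 22 member probe sets (rows), with filled points for the Cpdm array, open points for the wildtype array and a dotted line at the floor. Of the 17 that passed the floor in each array, 16 had the higher signal in the Cpdm array, and the exception is the dimmest Laptm5 probe set at 21.0 against 25.6.

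Among the activating Fc receptors the difference was uneven. Fcgr1 encodes the high-affinity receptor for immunoglobulin G and is known as an interferon-inducible gene of macrophages. Its brighter probe set, 1417876_at, read 708 in the Cpdm culture and 209 in the wildtype culture, a 3.39-fold difference. Its other probe set, 1436625_at, read 180 in the Cpdm culture and 70.1 in the wildtype culture, or 2.56-fold, so both passed 2-fold. Of all measured genes, 1.15% had a larger ratio than Fcgr1. Fcgr4, a mouse receptor of intermediate affinity found on monocytes, macrophages and neutrophils, had 1 probe set, at 149 in the Cpdm culture and 112 in the wildtype culture. That is 1.33-fold, the smallest difference of the 9, and 23.3% of measured genes had a larger one. The log2 ratio of Fcgr1 exceeded that of Fcgr4 by 1.35, more than the SD of 0.52 for a pair of genes.

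Fcgr3, the low-affinity activating receptor of macrophages, neutrophils and natural killer cells, had 1 probe set, which read 2088 in the Cpdm culture and 1350 in the wildtype culture. The difference of 1.55-fold lay between those of Fcgr1 and Fcgr4. Fcgr2b, the inhibitory receptor, read 2672 in the Cpdm culture and 1493 in the wildtype culture by its brightest probe set, or 1.79-fold. Its other probe sets above the floor gave 1.77-fold, 1.92-fold and 2.04-fold, so the 4 values lay close together on either side of 2-fold. The fifth probe set read 0.622 in the Cpdm culture and 0.774 in the wildtype culture, below the floor in both, and gives no fold. The inhibitory and the low-affinity activating receptor differed in log2 ratio by 0.21, less than the SD for a pair of genes. Fcgr1 exceeded Fcgr2b by 0.92, more than that SD but less than the 95th percentile of 1.19 for 2 probe sets of 1 gene. The outer parts of Fcgr2b and Fcgr3 are closely alike in sequence, and cross-hybridisation between their probe sets was not tested.

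The 2 ITAM adaptors had almost the same difference. Fcer1g, which encodes FcRγ, read 3761 in the Cpdm culture and 2736 in the wildtype culture, or 1.37-fold. Tyrobp, which encodes DAP12, read 3704 in the Cpdm culture and 2687 in the wildtype culture, or 1.38-fold. Each rests on 1 probe set. Their signals stood above those of at least 99.4% of the probe sets in either array, where the maximum was 4918 for the Cpdm array and 5156 for the wildtype array. Whether bright signals were compressed was not tested. Among 783 genes with a mean signal of at least 1000, 4.09% passed 2-fold upwards in Cpdm and 5.75% downwards.

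Trem2, a lipid-binding receptor of macrophages and osteoclast precursors that needs DAP12 to signal, was 1.77-fold higher by its brighter probe set. It read 1809 in the Cpdm culture and 1021 in the wildtype culture. That probe set, 1421792_s_at, is of a kind that can bind transcripts of related genes. The other, 1421226_at, was above the floor in the Cpdm culture alone, at 41.4 against 2.61 in wildtype, which makes it at least 2.21-fold higher. The log2 ratio of Trem2 exceeded that of its adaptor gene Tyrobp by 0.36, which is less than the SD of 0.52 for any pair of genes and more than the 0.29 for bright pairs, to which these belong.

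Syk had the largest difference of the 9 and the least even probe sets. The brightest, 1418261_at, read 368 in the Cpdm culture and 83.8 in the wildtype culture, or 4.39-fold, and 0.626% of measured genes had a larger ratio. The next, 1418262_at, read 122 in the Cpdm culture and 50.1 in the wildtype culture, or 2.43-fold, so the size of the difference varied by over 1.5 times between them. A further probe set, 1425797_a_at, went the opposite way near the floor, with 12.6 in the Cpdm culture, below the floor, against 23.5 in the wildtype culture. The remaining one, 1457239_at, was below the floor in both, at 17.5 in the Cpdm culture and 8.92 in the wildtype culture. Both brighter probe sets thus passed 2-fold, and the 2 dim ones carry little information. The log2 ratio of Syk exceeded that of the adaptor gene Fcer1g by 1.68.

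Laptm5, known in mouse lymphocytes for sending antigen receptor parts to lysosomal degradation, was 2.05-fold higher by its brightest probe set, at 2185 in the Cpdm culture and 1068 in the wildtype culture. Its next probe set read 1578 in the Cpdm culture and 654 in the wildtype culture, or 2.41-fold. The third read 398 in the Cpdm culture and 177 in the wildtype culture, or 2.25-fold. These 3 probe sets agree within 0.24 log2 units, and all 3 end in _s_at or _x_at, so the gene they represent is less certain. Another was above the floor in the Cpdm culture alone, at 86.1 against 7.77 in wildtype, or at least 4.60-fold higher. The dimmest, 1447742_at, read 21.0 in the Cpdm culture and 25.6 in the wildtype culture, near the floor and in the opposite direction, and is the one Laptm5 probe set that ends in plain _at.

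**Figure D2:**
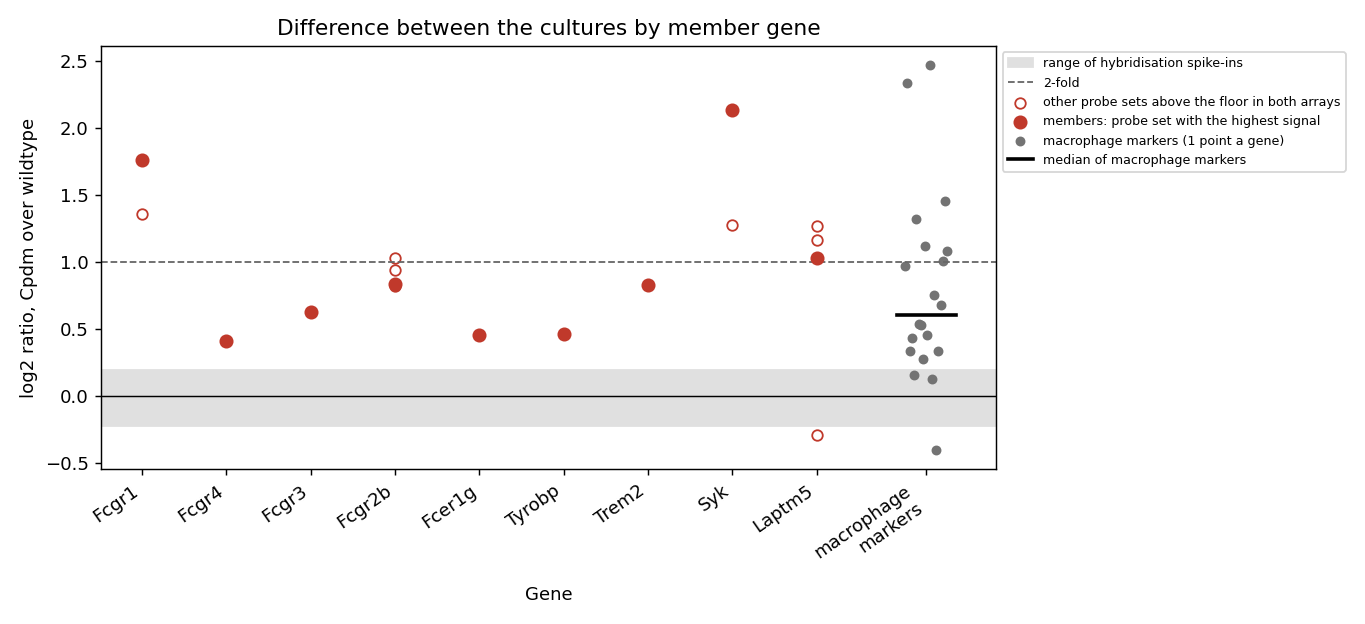
The log2 ratio of Cpdm over wildtype (y axis) of each member (x axis), with filled points for the brightest probe set, open points for further ones that passed the floor in each array, and grey points for 20 macrophage markers with their median at 0.61. Syk and Fcgr1 lie above 18 of the 20 markers, while Fcer1g, Tyrobp and Fcgr4 lie below the marker median.

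The start regions of the members are shown because these genes differed in the same direction and PU.1, the ETS factor encoded by Spi1 that macrophages depend on, is known to bind promoters of myeloid Fc receptor genes. RefSeq promoter windows on GRCm38.p6, from 250 bases before to 50 after the start, were matched for 8 of the 9 genes, with several starts for Fcgr3 and Syk. The PU.1 core GAGGAA or its reverse complement TTCCTC stood in a window of 6 of 8 genes, Fcgr1, Fcgr3, Fcgr4, Laptm5, Syk and Trem2, and in 31.3% of all 27025 genes with a window. A gamma-activated site, TTCNNNGAA on either strand, stood in that of Fcgr1 alone, 109 bases before the start, and in 9.55% of all genes. The composite of PU.1 and interferon regulatory factors, GGAANNGAA or TTCNNTTCC, stood in that of Fcgr2b alone and in 9.42% of all genes. No 2 matches overlapped. The 120 bases before the start follow for 5 of these genes, 5′ to 3′ on the gene's strand, with the PU.1 core, the gamma-activated site of Fcgr1 and the composite of Fcgr2b in capitals. The motifs were chosen after the members' values were known. A longer form of the composite and an NF-κB motif were searched first and are not reported here, and the shorter composite was taken after matches to the longer form had been seen. A match is a run of letters and not a measured binding site.
Fcgr1, chr3:96293970-96294089, minus strand: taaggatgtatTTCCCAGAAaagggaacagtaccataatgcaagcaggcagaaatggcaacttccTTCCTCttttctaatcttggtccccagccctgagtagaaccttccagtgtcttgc
Fcgr4, chr1:171018806-171018925, plus strand: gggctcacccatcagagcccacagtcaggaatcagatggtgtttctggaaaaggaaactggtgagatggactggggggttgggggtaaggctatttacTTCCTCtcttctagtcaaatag
Fcgr2b, chr1:170976072-170976191, minus strand: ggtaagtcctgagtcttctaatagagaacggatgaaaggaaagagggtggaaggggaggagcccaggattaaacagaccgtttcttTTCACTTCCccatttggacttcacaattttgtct
Trem2, chr17:48346281-48346400, plus strand: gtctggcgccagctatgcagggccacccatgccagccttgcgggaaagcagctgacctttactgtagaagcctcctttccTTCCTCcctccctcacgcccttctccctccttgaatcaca
Laptm5, chr4:130913196-130913315, plus strand: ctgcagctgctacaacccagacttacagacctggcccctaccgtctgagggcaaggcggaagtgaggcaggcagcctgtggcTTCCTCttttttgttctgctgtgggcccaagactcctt

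In these windows the PU.1 core of Fcgr1 began 55 bases before the start, beside the largest receptor difference of 3.39-fold. That of Fcgr4 began 22 bases before the start, beside the smallest difference of 1.33-fold. Fcer1g, whose window held none of the 3 motifs, was 1.37-fold higher. Spi1 itself read 410 in the Cpdm culture and 194 in the wildtype culture, or 2.11-fold, and is also among the macrophage markers described next. The part of PU.1 in the members' differences was not tested.

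Most markers of macrophages and monocytes were also higher in the Cpdm culture. Of 20 measured markers, 7 passed 2-fold upwards, as 5.84% of all measured genes did, and none downwards, 19 had a ratio above 0, and the median log2 ratio was 0.61, or 1.52-fold. Their summed signal was 37660 in the Cpdm culture and 27540 in the wildtype culture. The chemokine receptor gene Cx3cr1 was 5.53-fold and the actin-binding protein gene Aif1 5.05-fold higher, while the bright complement genes C1qa, C1qb and C1qc were 1.26-fold, 1.35-fold and 1.11-fold higher. Ccr2 was 2.50-fold, Ptprc 2.74-fold and Coro1a 2.17-fold higher. Itgam and Cd68 were 1.09-fold and 1.21-fold higher, and Lyz2, the marker with a ratio below 0, was 1.32-fold lower. Of the 9 members, 6 lay above the macrophage median, and Syk and Fcgr1 exceeded it by 1.53 and 1.15 log2 units. Fcer1g, Tyrobp and Fcgr4 lay 0.15, 0.14 and 0.20 log2 units below it, and Fcgr3 was 0.02 above it. The part of macrophage number in the members' differences was not tested.

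Of 8 leukocyte genes not tied to 1 lineage, 4 were at least 2-fold higher, where 5.84% of all measured genes were. These 4 were Cd52 at 3.52-fold, Ptprc, Coro1a and the member Laptm5. The 8 include Laptm5 itself, and Ptprc, Cd53, Coro1a and Lcp1 stand in the macrophage list as well. All 8 had a ratio above 0, with a median log2 ratio of 0.97. Cd53 and Lcp1 were 1.44-fold and 1.68-fold higher.

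Some markers of other leukocytes fell below the floor in both arrays. The same floor also removed many unrelated genes, leaving 14055 measured out of 18193. Counts of markers below it therefore do not by themselves show which cells were absent. Of 9 neutrophil genes, Elane, Camp and Cxcr2 were below the floor in both arrays, and the summed signal of the other 6 was 324 in the Cpdm culture and 316 in the wildtype culture, with a median log2 ratio of -0.43, or -0.05 with the floor at the 60th percentile. Csf3r, the receptor gene for granulocyte colony-stimulating factor, made up most of that sum, at 193 in the Cpdm culture and 110 in the wildtype culture, and was the one of the 6 with a ratio above 0. Of 11 mast cell and basophil genes, 5 were below the floor in both, including Fcer1a, the binding chain of the immunoglobulin E receptor, and Hdc. The summed signal of the other 6 was 292 in the Cpdm culture and 214 in the wildtype culture. A large part of the Cpdm sum was the basophil protease gene Mcpt8, 5.24-fold higher at 117 against 22.4 in wildtype. Kit was 2.39-fold lower. The median log2 ratio of these 6 was -0.05, and 2 of them had a ratio above 0. Of 9 T and NK cell genes, Cd3d, Cd3g and Nkg7 were below the floor in both. The other 6 summed to 325 in the Cpdm culture and 238 in the wildtype culture. A large part of the Cpdm sum was Cd4, at least 7.83-fold higher at 147 against 18.4 in wildtype. The median log2 ratio of the T and NK cell genes was -0.15, and 2 of the 6 had a ratio above 0. Of 7 B cell genes, Cd79a and Vpreb1 were below the floor in both, and the other 5 summed to 160 in the Cpdm culture and 186 in the wildtype culture.

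Osteoclasts depend on the same adaptors when they form. Of 11 osteoclast genes, Calcr, Ocstamp and Dcstamp were below the floor in both arrays. None of the other 8 passed 2-fold in either direction by its brightest probe set, against 5.84% of all measured genes upwards and 5.98% downwards, and the median log2 ratio was 0.07. Tnfrsf11a, which encodes the receptor RANK, was 1.11-fold higher by that probe set and 3.03-fold higher by another. The cathepsin K gene Ctsk read 969 in the Cpdm culture and 1890 in the wildtype culture, and Atp6v0d2 read 759 in the Cpdm culture and 767 in the wildtype culture. Nfatc1, the transcription factor that ITAM signals switch on in osteoclast precursors, had a log2 ratio of 0.32. Osteoblast genes ran the other way, with 7 of 8 at least 2-fold lower in the Cpdm culture, among them Alpl at 130 in the Cpdm culture and 1518 in the wildtype culture, and Sp7 at 87.1 in the Cpdm culture and 650 in the wildtype culture. Over 9 dendritic cell genes the median log2 ratio was 0.60, with Cd74 at 2.17-fold higher. H2-Aa was 5.68-fold higher by an _x_at probe set and 1.75-fold by another. Zbtb46 had a log2 ratio of -1.15 by its brightest probe set and between -1.25 and -0.49 by others. Stromal genes had a median of 0.23 over 10, with 2 at least 2-fold higher and 2 at least 2-fold lower.

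**Figure D3:**
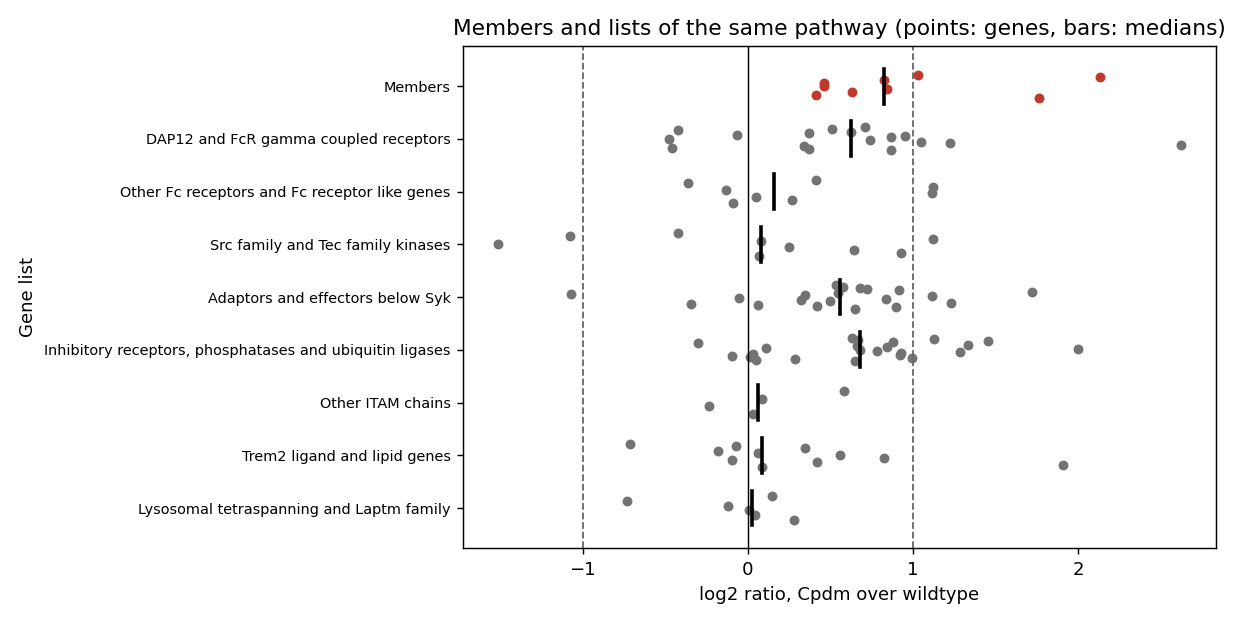
The log2 ratio of Cpdm over wildtype (x axis) for the 9 members and for 8 lists of genes of the same pathway (rows), with 1 point per gene, bars at the medians and dashed lines at 2-fold. Receptors, effectors and inhibitors have medians of 0.63, 0.56 and 0.68, while the kinase list, with Fyn at -1.52, has a median of 0.08.

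A list of receptors coupled to DAP12 or FcRγ had 17 measured genes. It also held the integrin chains Itgb2 and Itgb3, and Clec7a, whose product has a Syk-binding motif of its own. Of the 17, 3 passed 2-fold upwards and none downwards, where 5.84% and 5.98% of all measured genes did. A ratio above 0 was found for 13 of the 17, with a median log2 ratio of 0.63 and a lowest value of -0.48. The C-type lectin gene Clec4e (Mincle), a receptor for mycobacterial glycolipid and dying cells, read 232 in the Cpdm culture and 37.6 in the wildtype culture, or 6.17-fold, and 3.81-fold by another probe set. Clec4n (Dectin-2), a receptor for fungal mannans, was 2.34-fold higher at 2393 in the Cpdm culture and 1024 in the wildtype culture. Clec5a, a DAP12 partner, was 2.06-fold higher. Clec4d and Clec7a (Dectin-1), which were bright in both cultures, were 1.27-fold and 1.67-fold higher.

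Of 8 measured Fc receptors and relatives outside the Fcγ family, 2 passed 2-fold upwards and none downwards. The shares of all measured genes were 5.84% upwards and 5.98% downwards. The median log2 ratio was 0.16, or 0.73 with the floor at the 60th percentile. Fcrls, an Fc receptor-like gene known in mouse as a mark of microglia, read 3084 in the Cpdm culture and 1416 in the wildtype culture, or 2.18-fold, and Fcrl1 was 2.17-fold higher. The neonatal Fc receptor gene Fcgrt, which many cell types express, was 1.20-fold higher, and the cytosolic antibody receptor gene Trim21 was 1.33-fold higher. In a list of other ITAM chains and the adaptor gene Hcst, none of 4 measured genes passed 2-fold. Cd3d, Cd3g and Cd79a of lymphocytes were below the floor in both arrays. Cd247 and Cd79b were above the floor in the Cpdm culture alone, at 19.1 and 19.9 where that floor was 18.5. This makes them at least 1.02-fold and 1.06-fold higher. Cd3e read 25.7 in the Cpdm culture and 30.4 in the wildtype culture. Hcst encodes the adaptor DAP10, which is not an ITAM chain, and is the neighbour of Tyrobp. It read 97.9 in the Cpdm culture and 65.3 in the wildtype culture.

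The kinases that phosphorylate ITAMs or act beside Syk went both ways. Of 9 measured, 1 passed 2-fold upwards and 2 downwards, where 5.84% and 5.98% of all measured genes did. Tec read 356 in the Cpdm culture and 164 in the wildtype culture, or 2.17-fold, and its relative Btk was 1.90-fold higher. Fyn, a Src family kinase that many cell types express, read 204 in the Cpdm culture and 582 in the wildtype culture, or 2.86-fold lower, and Yes1 was 2.11-fold lower. Another 4 kinases of the list were not analysed here.

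Among adaptors and effectors below Syk, 3 of 20 measured passed 2-fold upwards and 1 downwards, where 5.84% and 5.98% of all measured genes did. The median log2 ratio was 0.56. The protein kinase C gene Prkcb read 850 in the Cpdm culture and 257 in the wildtype culture, or 3.30-fold, and 3.22-fold by another probe set. Lcp2, which encodes the scaffold SLP-76, was 2.35-fold higher but 1.37-fold by another probe set, and the phosphoinositide 3-kinase gene Pik3cg was 2.16-fold higher. Blnk, the scaffold related to Lcp2, was 1.86-fold higher. Plcg1, the broadly expressed phospholipase, was 2.10-fold lower, or 0.43 log2 units lower by another probe set. Pik3cd was near equal by its brightest probe set, at 2136 in the Cpdm culture and 2221 in the wildtype culture, and up to 2.61-fold higher by others. The list also held Cd9, at 1.33-fold higher.

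Of 23 measured inhibitory receptors, phosphatases and ubiquitin ligases, 5 passed 2-fold upwards and none downwards, where 5.84% and 5.98% of all measured genes did. The other 18 did not pass, and the log2 ratios of the list had a median of 0.68 and a lowest value of -0.30, that of Ptpn11, which encodes the phosphatase SHP2. Inpp5d encodes SHIP1, the lipid phosphatase that Fcgr2b recruits. It read 594 in the Cpdm culture and 149 in the wildtype culture, or 3.99-fold, and 3.17-fold by another probe set. The paired inhibitory receptor gene Pirb was 2.52-fold, the adaptor gene Dok1 2.43-fold and Sla 2.19-fold higher, with Sla between 0.976-fold and 2.08-fold by other probe sets. The fifth was Ptprc, the phosphatase CD45. Sirpa and Cd300a, bright inhibitory receptor genes, were 1.59-fold and 1.01-fold by their brightest probe sets. Other probe sets went down to a log2 ratio of -0.36 for Sirpa and -0.57 for Cd300a. Over all 8 lists together, 15 of 97 measured genes passed 2-fold upwards, where 5.84% of all measured genes did, 3 passed it downwards, where 5.98% did, and 79 did neither.

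Of 11 measured genes tied to Trem2 by its ligands or to lipid handling, 1 passed 2-fold upwards, near the 5.84% of all measured genes, and the median log2 ratio was 0.08. The lipoprotein lipase gene Lpl had log2 ratios of -0.71 and -0.64 by its 2 probe sets, and Csf1 was 1.77-fold higher by its brightest probe set and between 0.952-fold and 1.21-fold by others. Apoe, a Trem2 ligand, read 3719 in the Cpdm culture and 3512 in the wildtype culture. Lgals3 and Ctsd were also near equal, with log2 ratios of -0.07 and 0.06. Axl, a receptor for dying cells, was 3.75-fold higher by its brightest probe set and 1.29-fold by another. None of 6 lysosomal genes listed beside Laptm5 passed 2-fold, with Cd68, Lamp1 and Lgmn at 1.21-fold, 1.03-fold and 1.11-fold.

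**Figure D4:**
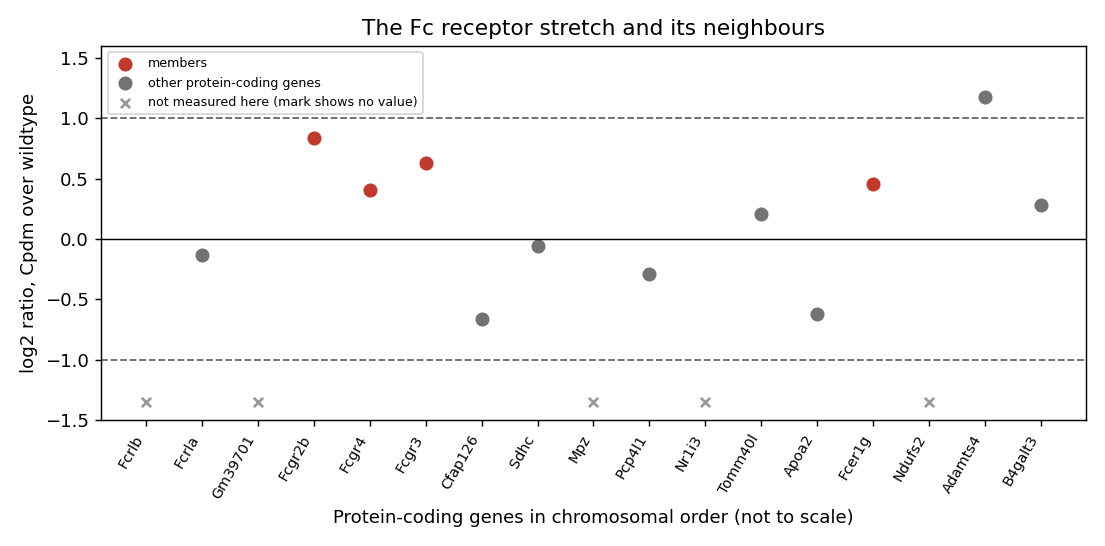
The log2 ratio of Cpdm over wildtype (y axis) of protein-coding genes in chromosomal order from Fcrlb to B4galt3 (x axis, not to scale), with members in red and crosses for genes with no value here. The 4 members lie between 0.41 and 0.84, and the 8 other measured genes between -0.66 and 1.18.

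Fcgr2b, Fcgr4, Fcgr3 and Fcer1g lie near each other on mouse chromosome 1, so their neighbours were compared as a check chosen after the values were seen. In the order of the RefSeq annotation, 17 protein-coding genes run from 3 before Fcgr2b to 3 after Fcer1g. Of the 8 measured genes that are not members, 3 had a ratio above 0 and the median log2 ratio was -0.09. Cfap126 and Sdhc, which follow Fcgr3, had log2 ratios of -0.66 and -0.06, with 0.67 for another Sdhc probe set. Adamts4 was 2.26-fold higher, at 74.5 in the Cpdm culture and 32.9 in the wildtype culture, with a log2 ratio of -0.10 by another probe set. Around Trem2, the 6 measured relatives, Trem1, Trem3, Treml4, Treml2, B430306N03Rik and Treml1, all had a ratio above 0, as 52.4% of all measured genes did. B430306N03Rik read 492 in the Cpdm culture and 236 in the wildtype culture. The others were dim, at most 81.9 in the Cpdm culture, and Treml4 and Treml2 were below the floor in the wildtype culture. Treml2 was at least 2.13-fold and B430306N03Rik 2.08-fold higher, while Trem1 read 33.2 in the Cpdm culture and 23.3 in the wildtype culture.

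Several features of the arrays ran alongside genotype. Xist was 4.51-fold higher in the Cpdm culture, while Kdm5d, Eif2s3y and Uty, on the Y chromosome, were between 3.08-fold and 3.77-fold lower. Log2 ratios of the 3 controls for 18S ribosomal RNA lay between -3.75 and -2.37, and the ratio of 3′ to 5′ signal for actin was 1.92 in Cpdm and 1.61 in wildtype. Sharpin read 162 in the Cpdm culture and 197 in the wildtype culture, which does not check the genotype labels because the mutation need not remove the transcript. The part of these features in the members' differences was not tested.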

How the data were processed

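The authors deposited 1 table of linear signal intensity values, 1 column per array and 45101 probe sets, made with GCOS 1.4 and MAS5, per the submitters' processing notes. Scaling target, background settings and detection calls are not given in the sources used. Of 45037 probe sets that are not controls, 34945 carry exactly 1 gene in the platform annotation, 932 several and 9160 none, and symbols were updated through Entrez identifiers. The table names no genome build.

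No further scaling was applied in the computation, which used Python 3.11.15 with numpy 2.4.6 and pandas 2.3.3. Signals below the 40th percentile of each array were set to it. The probe set brightest in mean log2 signal stood for each gene, and a difference of at least 2-fold was counted. A fold with 1 array at the floor is a bound, written "at least". The calculation was tested on simulated data. The members, the gene lists and the rule for naming genes (each member, and from each list up to 6 genes past 2-fold and the 3 brightest) were chosen with earlier results of these data known. Not every gene picked by that rule is named here, and some others are named besides. Alternatives covered the floor, pseudocount, scaling, choice of probe set and fold rule. Promoter windows and gene order came from RefSeq, GRCm38.p6.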

Additional observations from a re-analysis of the deposited data

How the results depend on the processing

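The 9 log2 ratios were recomputed under 10 alternatives of floor, pseudocount, scaling and probe set, and 87 of 90 values were above 0. Many of these values could not change sign. The other floors left all 9 values as they were. Fcgr4, Fcgr3, Fcer1g and Tyrobp have 1 probe set each, so the choice of probe set left them as they were too. The count of 87 therefore says little about robustness. The exceptions were Syk at -0.35 with the lowest probe set that passes the floor, and Laptm5 at -0.29 with that choice and also without _s_at and _x_at probe sets. Both values come from dim probe sets near the floor. The mean over probe sets gave 1.02 for Syk. Fcgr1 stayed between 1.36 and 1.79. With a 1.5-fold rule 6 members were higher, against 15.7% of all genes, and 13.5% of all genes were lower. Without a floor 9.27% of all genes were at least 2-fold lower. The count of members at least 2-fold higher kept within 1.5 times of 3 under the other alternatives, but the genes counted changed. With the lowest probe set it was 2, Fcgr1 and Trem2, and without _s_at and _x_at probe sets Trem2 took the place of Laptm5. That Trem2 value comes from a probe set above the floor in the Cpdm culture alone. Spike-in scaling also gave 2. The median of the members fell from 0.83 to 0.46 with the lowest probe set and to 0.63 without _s_at and _x_at probe sets. Scaling moved the median log2 ratio of all genes by less than 0.1. Among 576 list counts and medians, 61 moved by over 1.5 times or by more than the probe-set SD. No paired analysis was possible because each genotype has 1 array, and no replicate could be left out. Signals near the floor limit the dim probe sets, and the number of arrays limits all of them.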

Other observations

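A few dim probe sets differed more in their deposited signals than the floor lets show. The ratio of Cpdm over wildtype without a floor was 15.8 for the dimmer Trem2 probe set and 11.1 for the Laptm5 probe set that was above the floor in the Cpdm culture alone. The wildtype signals behind both ratios, 2.61 for Trem2 and 7.77 for Laptm5, lie in the part of the scale where MAS5 values are noisy.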
